A study of Mus musculus with 10 samples.

Results

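The hippocampi were compared by their content of choroid plexus transcripts. All 10 arrays of the series entered the comparison, and each array was placed on a side by the level of Ttr, which encodes transthyretin, the carrier of thyroid hormone and retinol-binding protein in the cerebrospinal fluid. The 5 arrays with a Ttr value above a threshold set in the empty range between 10.29 and 12.68 on the log2 scale are called Ttr-high, and the 5 below it Ttr-low. The sides were therefore defined by a measured value and not by a label, and mice were not assigned to them. Each array held total RNA from the right and left hippocampus of 1 male mouse of 16 weeks on a background labelled C57BL/6N, where the study's methods give C57BL/6J. The Dp3Yah mice (n = 5) carry 3 copies of the part of mouse chromosome 16 from Hspa13 to Gabpa, and the control mice (n = 5) were their littermates. The Ttr-high side held 3 Dp3Yah and 2 control mice, and the Ttr-low side held 2 Dp3Yah and 3 control mice.

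The choroid plexus is a folded tissue in the brain ventricles. Its epithelial cells secrete the cerebrospinal fluid, move ions, folate, glucose and other solutes between blood and fluid, and are sealed to each other by tight junctions. The plexus of the lateral ventricle runs along the fimbria of the hippocampus, so a dissected hippocampus can carry a piece of it. Ttr is one of the most abundant transcripts of these cells. Kcnj13 (a potassium channel), Folr1 (a folate receptor), Kl (klotho), Slc4a5 (a bicarbonate cotransporter), Clic6 (a chloride channel protein) and Sostdc1 (a secreted inhibitor of Wnt and BMP signals) are other genes known as markers of this epithelium.

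The Ttr values formed 2 clusters with an empty range between them. In the Ttr-high arrays Ttr was at 13.40 in Dp3Yah replicate 5, 13.33 in control replicate 5, 13.25 in control replicate 1, 13.04 in Dp3Yah replicate 2 and 12.68 in Dp3Yah replicate 1. In the Ttr-low arrays it was at 10.29 in control replicate 4, 10.17 in control replicate 3, 9.62 in Dp3Yah replicate 3, 9.37 in Dp3Yah replicate 4 and 8.99 in control replicate 2. The mean was 13.14 ± 0.29 against 9.69 ± 0.54 (log2, SD, n = 5 each), a difference of 3.45 or 10.9-fold. The arrays just inside and just outside the threshold, Dp3Yah replicate 1 and control replicate 4, were 2.39 apart. Since Ttr set the sides, these values are a description and were not tested. Both genotypes were present in each cluster.

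All other genes were then compared between the sides with limma, with genotype as a covariate. A gene was called where its p, adjusted by Benjamini-Hochberg over the 19937 genes tested, was under 0.05. Such a p describes how closely a gene separated together with Ttr in these 10 mice. In bulk tissue fewer cells of a type and less RNA per cell cannot be told apart. Of the 19937 genes 44 were called (0.221%), 42 of them higher in the Ttr-high arrays (0.211%) and 2 lower (0.01%). The median difference over all genes was -0.002. The number called fell to 21 when control replicate 5 was left out, to 25 for Dp3Yah replicate 3 and to 29 for control replicate 3, and 21 of the 44 genes were called in each of the 10 fits that left out 1 mouse.

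The 6 other markers were all higher in the Ttr-high arrays, and no array of one side overlapped the other. Kcnj13, the potassium channel (chromosome 1, 87384577 to 87394729, GRCm38.p6), had the largest difference of all genes tested. Its log2 value was 9.82 in control replicates 1 and 5, 9.53 in Dp3Yah replicate 2, 8.60 in Dp3Yah replicate 1 and 9.995 in Dp3Yah replicate 5, and in the Ttr-low arrays it ran from 5.96 in Dp3Yah replicate 4 to 6.58 in control replicate 2. The difference was 3.35 (SE 0.21, 10.2-fold, limma adjusted p = 3.73e-05). The sides were wide apart, with no intermediate mouse.

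Folr1 takes up folate for transfer into the fluid. It was at 7.66, 8.19, 7.81, 7.73 and 7.07 in the Ttr-high arrays, in the descending order of Ttr given above, and at 6.56, 6.41, 6.47, 6.26 and 6.24 in the Ttr-low arrays in their descending order. The difference was 1.36 (SE 0.14, limma adjusted p = 0.00126). Kl, which acts as a coreceptor of FGF23 and is also shed into the fluid, was at 7.84, 8.13, 8.09, 7.95 and 7.68 against 6.66, 6.96, 6.28, 6.90 and 6.44 in the same order. The difference was 1.33 (SE 0.12, limma adjusted p = 0.000803). Slc4a5 was at 6.43, 6.63, 6.44, 6.35 and 6.00 against 5.24, 5.20, 5.34, 5.42 and 5.28, a difference of 1.09 (SE 0.10, limma adjusted p = 0.000803). In each of these 3 genes the lowest Ttr-high mouse, Dp3Yah replicate 1, was also the mouse with the lowest Ttr of its side.

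Clic6 was at 6.56, 6.86, 6.68, 6.31 and 5.75 against 4.73, 4.85, 5.24, 4.99 and 4.82 in the same order, a difference of 1.54 (SE 0.18, limma adjusted p = 0.00265). Sostdc1 was at 7.97, 8.09, 7.90, 7.89 and 6.87 against 6.12, 6.34, 6.02, 6.31 and 6.24, a difference of 1.59 (SE 0.18, limma adjusted p = 0.00256). Both genes repeated the pattern of a clear gap with Dp3Yah replicate 1 lowest on its side. Clic6 lies on chromosome 16 at 92498147 to 92541241, as do Kcne2 at 92292389 and Col8a1 at 57624256 (starts, GRCm38.p6), all outside the duplicated interval. Ranking the arrays by the mean of the 6 markers gave the same 5 against 5, as it must where none of the 6 overlaps between the sides.

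**Figure D1:**
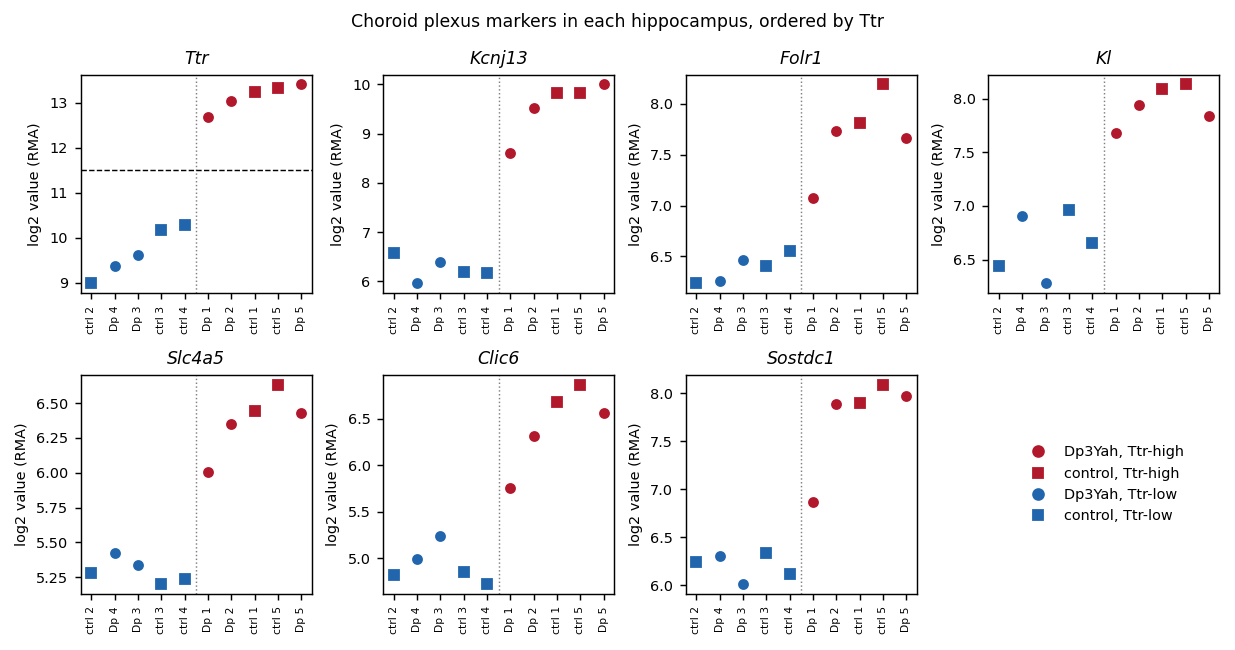
Log2 value of Ttr and of 6 other choroid plexus markers (vertical axes, each with its own range) in each of the 10 hippocampi, ordered from left to right by Ttr; red marks Ttr-high and blue Ttr-low arrays, circles Dp3Yah (Dp) and squares control (ctrl) mice, and the dashed line is the threshold on Ttr. In each panel the 5 Ttr-high mice sit above the 5 Ttr-low mice, with Dp3Yah replicate 1 the lowest of the red points.

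Genes of the choroid plexus were read in 5 groups by role, beside Ttr. Of 55 listed genes 51 were measured; Enpp2, Prlr, Mfrp and Lmx1a had no probe set of their own that could be used. In the Ttr-high arrays 28 of the 51 were called higher and none was called lower (54.9%, against 0.221% of all genes). The difference was positive in 51 of 51, with a median of 0.46 against -0.002 over all genes. An unadjusted p under 0.05 was found in 46 of the 51 and in 1537 of all genes (7.71%), of which 830 were higher (4.16%) and 707 lower (3.55%). In 34 of the 51 every Ttr-high array lay above every Ttr-low array, which was the case for 192 of all 19937 genes (0.963%). The number called fell to 18 without control replicate 5.

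Of the 21 transport genes 12 rose (median difference 0.42). These are the channels and carriers with which the epithelium makes fluid. Besides Kcnj13, Clic6, Folr1 and Slc4a5, the glucose transporter gene Slc2a12 rose by 0.89 (SE 0.11, limma adjusted p = 0.00305) and the carbonic anhydrase Car12 by 0.67 (SE 0.11, limma adjusted p = 0.0250). The water channel Aqp1 rose by 0.59 (SE 0.09, limma adjusted p = 0.0136) and the osmosensitive cation channel Trpv4 by 0.56 (SE 0.07, limma adjusted p = 0.00433). Aqp1 showed a narrow gap, since the lowest Ttr-high mouse was at 6.171 and the highest Ttr-low mouse at 6.155. The potassium channel subunit Kcne2 rose by 0.47 and the retinoid-lipid transporter Abca4 by 0.42. The anion exchanger Slc4a2 rose by 0.40 and the membrane protein gene Steap1 by 0.39. For Kcne2, Abca4, Slc4a2 and Steap1 the limma adjusted p lay between 0.0176 and 0.0220.

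Several transport genes did not pass. The monoamine transporter Slc29a4 was 0.44 higher (95% interval 0.27 to 0.61, limma adjusted p = 0.0516), with no overlap between the sides. Slc12a2, the sodium-potassium-chloride cotransporter of the apical membrane, was 0.41 higher (95% interval 0.19 to 0.63, limma adjusted p = 0.243). Slc16a8, a lactate carrier, differed by 0.01 (95% interval -0.10 to 0.13), the smallest difference among the 51 genes.

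Of the 12 secreted and matrix proteins 8 rose (median difference 0.73). Ecrg4, which encodes a secreted peptide precursor, was at 8.12, 8.01, 7.52, 6.97 and 6.75 in the Ttr-high arrays in descending order of Ttr and at 6.10, 5.74, 5.44, 5.68 and 5.62 in the Ttr-low arrays. It rose by 1.83 (SE 0.22, 3.56-fold, limma adjusted p = 0.00330), and on the Ttr-high side its order was that of Ttr itself. The lipopolysaccharide-binding protein Lbp rose by 1.47 (SE 0.15, limma adjusted p = 0.00103) and the collagen Col8a1 by 0.89 (SE 0.09, limma adjusted p = 0.00103). The coagulation factor F5 rose by 0.77, the insulin-like growth factor binding protein Igfbp2 by 0.69 and the protease inhibitor Wfikkn2 by 0.35. A second probe set of Wfikkn2 differed by 0.16. Igfbp2 had a small SE of 0.07, with Ttr-high values of 7.77 to 8.18 and Ttr-low values of 7.31 to 7.47. The growth factors Bmp6 (0.37, limma adjusted p = 0.0516) and Igf2 (0.36, limma adjusted p = 0.112) did not pass; Bmp6 did not overlap between the sides, and 4 of the 5 Ttr-high mice lay above every Ttr-low mouse for Igf2.

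Of the 10 surface proteins and enzymes 4 rose (median difference 0.57). Cox8b, a subunit of cytochrome c oxidase, was at 7.61, 8.03, 7.45, 7.11 and 6.89 against 5.95, 5.69, 6.00, 5.84 and 5.64 in the same order of arrays. It rose by 1.63 (SE 0.17, 3.10-fold, limma adjusted p = 0.00126). Tmem72, a membrane protein, rose by 1.04, the calmodulin-like gene Calml4 by 1.02 and the angiotensin-converting enzyme Ace by 0.77, with limma adjusted p between 0.00256 and 0.00415. The serotonin receptor gene Htr2c, which neurons of the hippocampus also express, was 0.26 higher (95% interval 0.07 to 0.45) and did not pass. The retinol dehydrogenase Rdh5 was 0.54 higher (95% interval 0.32 to 0.76, limma adjusted p = 0.0595) and the sulfatase Sulf1 0.61 higher (95% interval 0.34 to 0.87, limma adjusted p = 0.100), each without overlap of the sides.

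Of the 6 junction and keratin genes 3 rose (median difference 0.35). The tight junction gene Cldn2 rose by 0.50 (SE 0.09, limma adjusted p = 0.0434), the epithelial keratin Krt18 by 0.47 (SE 0.07, limma adjusted p = 0.0219) and the desmosomal gene Perp by 0.31 (SE 0.05, limma adjusted p = 0.0390). Krt8, the partner of Krt18 in keratin filaments, was 0.38 higher and did not pass (limma adjusted p = 0.291). Cldn2 and Perp were called in only 1 and 2 of the 10 fits that left out a mouse.

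**Figure D2:**
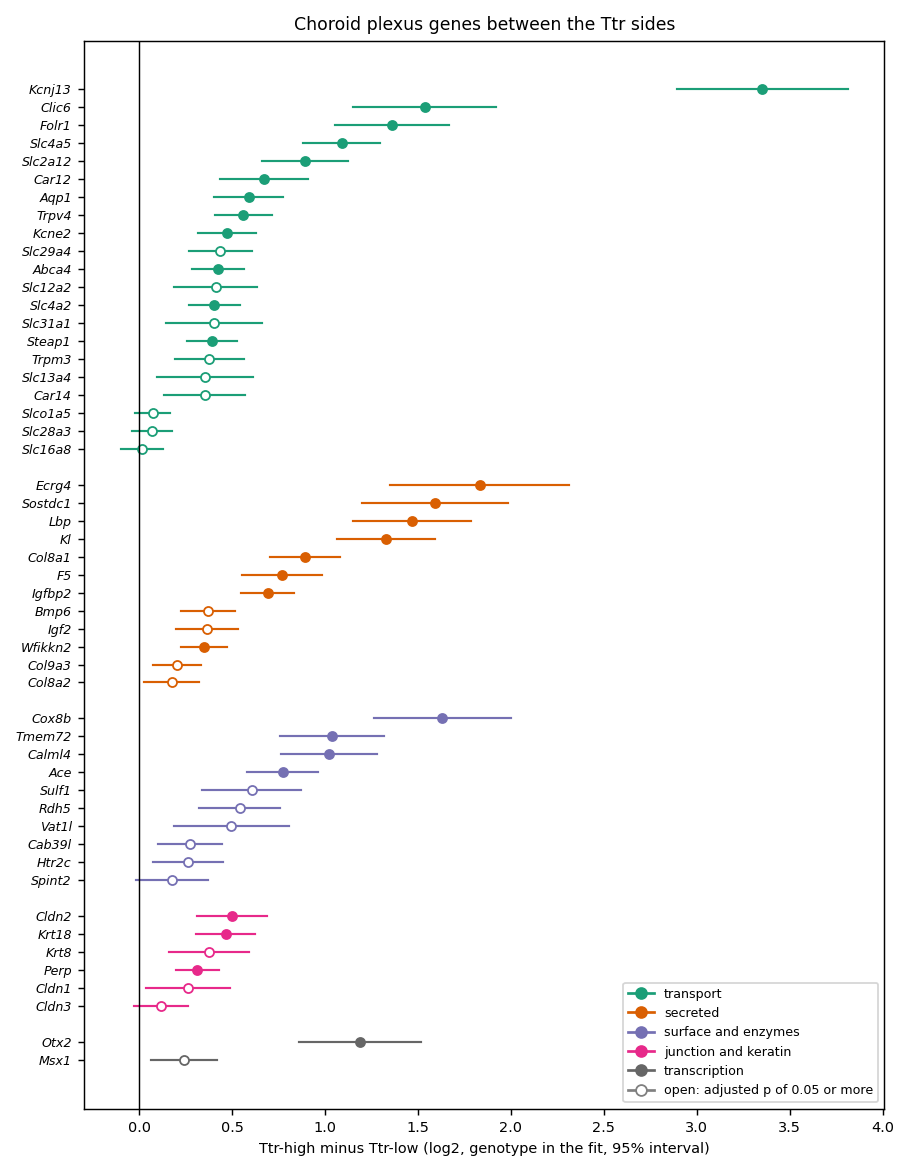
Difference between Ttr-high and Ttr-low arrays (horizontal axis, log2, genotype in the fit) of the 51 measured choroid plexus genes other than Ttr, in 5 groups by role, with 95% intervals; filled points were called and open points were not. All 51 points lie above 0, from 0.01 in Slc16a8 to 3.35 in Kcnj13.

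Of the 2 transcription factors Otx2 rose and Msx1 did not pass. Otx2 is a homeodomain factor needed to form the choroid plexus. It was at 6.88, 6.72, 6.50, 6.07 and 6.04 in the Ttr-high arrays, in descending order of Ttr, and at 5.52, 5.30, 5.29, 5.25 and 5.08 in the Ttr-low arrays. The values followed the order of Ttr on both sides. The difference was 1.19 (SE 0.15, 2.28-fold, limma adjusted p = 0.00433). Msx1 was 0.24 higher (95% interval 0.06 to 0.42).

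OTX2 and its relatives bind DNA with the core TAATCC. The 250 bases before the transcription start were searched for TAATCC and its reverse complement GGATTA in the RefSeq promoters of GRCm38.p6. Of 32851 promoters 2054 held it (6.25%). The table held promoters for 46 genes of the choroid lists, and 6 of their 61 promoters held the core (9.84%). Among the called choroid genes, 23 of which were in the table, it was found in 3 of 30 promoters (Abca4, Ace and Otx2). Of the 6 markers, Kcnj13, Kl and Slc4a5 were in the table, and 0 of their 3 promoters held it. The 3 promoters with the core are shown with it in capitals, and that of Kcnj13, the gene with the largest difference, is shown for comparison; these 4 were chosen after the values were seen. The core begins 58 bases before the start in Abca4, 27 in Ace and 211 in Otx2; the listed starts of Abca4 and Otx2 lie inside the span of the gene. A match is a description of these letters and shows no binding.
Otx2, chr14:48665110-48665359, - strand: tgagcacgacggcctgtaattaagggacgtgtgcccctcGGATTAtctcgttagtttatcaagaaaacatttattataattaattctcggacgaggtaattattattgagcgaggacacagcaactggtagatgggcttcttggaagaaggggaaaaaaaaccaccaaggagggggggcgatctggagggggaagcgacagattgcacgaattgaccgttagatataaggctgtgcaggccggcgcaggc
Ace, chr11:105967698-105967947, + strand: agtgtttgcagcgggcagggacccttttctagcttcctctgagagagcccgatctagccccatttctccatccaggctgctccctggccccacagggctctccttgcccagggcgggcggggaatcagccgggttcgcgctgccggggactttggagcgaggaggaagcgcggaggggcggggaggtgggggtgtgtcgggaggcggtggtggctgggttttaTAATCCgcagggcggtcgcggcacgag
Abca4, chr3:122044210-122044459, + strand: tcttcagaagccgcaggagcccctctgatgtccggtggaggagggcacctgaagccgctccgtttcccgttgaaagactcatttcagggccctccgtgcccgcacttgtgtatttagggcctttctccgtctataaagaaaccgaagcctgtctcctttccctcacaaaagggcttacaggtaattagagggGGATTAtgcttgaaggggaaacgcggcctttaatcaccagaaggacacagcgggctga
Kcnj13, chr1:87394730-87394979, - strand: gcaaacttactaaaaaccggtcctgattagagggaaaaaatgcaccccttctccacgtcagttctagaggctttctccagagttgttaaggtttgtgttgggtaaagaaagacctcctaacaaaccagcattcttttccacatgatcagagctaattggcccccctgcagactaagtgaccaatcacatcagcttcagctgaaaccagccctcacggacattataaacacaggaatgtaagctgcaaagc

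Within the Ttr-high side the mouse with the least Ttr was also lowest in most choroid plexus genes. Dp3Yah replicate 1 had the lowest value of the 5 Ttr-high mice in 27 of the 28 called choroid genes and in 36 of all 51. The highest value was in control replicate 5 in 15 of the 28 and in Dp3Yah replicate 5 in 9. The Ttr-low side showed no such order: the lowest of its 5 mice was Dp3Yah replicate 4 in 8 of the 28 genes, Dp3Yah replicate 3 in 7, control replicate 2 in 7, control replicate 3 in 4 and control replicate 4 in 2. Control replicate 4, with the most Ttr of the Ttr-low side, was highest in 11 of the 28. The mean of the 6 markers, as a deviation from each gene's mean over all arrays, ran from -0.88 to -0.80 on the Ttr-low side and from 0.21 to 1.17 on the Ttr-high side.

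Besides the choroid lists 16 genes were called, 14 of them higher in the Ttr-high arrays. Pla2g5, a secreted phospholipase A2, was at 7.45, 7.65, 7.17, 7.09 and 6.93 against 6.40, 6.28, 6.42, 6.08 and 6.42 in descending order of Ttr on each side. It rose by 0.97 (SE 0.11, 1.97-fold, limma adjusted p = 0.00265), the largest difference outside the choroid lists among called genes. Stoml3, a stomatin-like membrane protein, rose by 0.63, the protease inhibitor A2m by 0.60, the collagen-processing enhancer Pcolce2 by 0.57 and the exchange factor Vav3 by 0.55. Defb11, a defensin, rose by 0.52, the proline-rich gene Prr32 by 0.52, the paraoxonase Pon3 by 0.49, the cilium gene Rsph4a by 0.43 and the metalloreductase Steap2 by 0.41. Defb11 was dim, at 4.005 to 4.54 against 3.69 to 3.91, and was called in 4 of the 10 fits without 1 mouse. Steap2 has a second, dimmer probe set, which differed by 0.02. The other 4, Vamp8, Cpq, Nxn and Mdfic, rose by 0.34 to 0.40 and were named after their values were seen. All 42 genes that were called higher showed no overlap between the sides, which was the case for 192 of all 19937 genes (0.963%). Since genes were called for their separation, this is a description only.

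The 2 genes called lower were Ier5 and Slc16a3. Ier5, an immediate early response gene, was at 7.08, 7.27, 7.48, 7.06 and 7.23 in the Ttr-high arrays and at 7.80, 7.53, 7.63, 7.77 and 7.75 in the Ttr-low arrays. It fell by 0.45 on the log2 scale (SE 0.08, limma adjusted p = 0.0390). Slc16a3, which encodes the lactate carrier MCT4, was at 5.82, 5.75, 5.76, 5.63 and 5.75 against 6.02, 5.97, 6.13, 6.02 and 6.07. It fell by 0.30 (SE 0.05, limma adjusted p = 0.0224). In both genes every Ttr-high array lay below every Ttr-low array, as in 122 of all genes (0.612%), and they were called in 2 and 4 of the 10 fits without 1 mouse. Klf5 (-0.43, limma adjusted p = 0.0812), a zinc finger factor, and Tnnt2 (-0.47), a troponin, were also lower and did not pass.

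The size of the difference was then read within Dp3Yah (3 Ttr-high against 2 Ttr-low mice) and within control (2 against 3). The 42 genes called higher do not overlap between the sides, which fixes their direction in each genotype, so only the sizes are described. The median difference of the 42 was 0.57 in Dp3Yah and 0.65 in control, and the difference was larger in control in 36 of the 42. Dp3Yah replicate 1, 1 of the 3 Ttr-high Dp3Yah mice, was lowest of its side in 27 of the 28 called choroid genes. It lowers the difference in Dp3Yah for these genes, and the sizes within genotype were not read without it. The 42 genes vary together, so their number does not measure the spread between mice. Kcnj13 differed by 3.20 in Dp3Yah (SE 0.31) and by 3.51 in control (SE 0.31). Clic6 differed by 1.10 in Dp3Yah and by 1.98 in control (SE 0.18 each), Cox8b by 1.29 and 1.98 (SE 0.20 each), Slc4a5 by 0.88 and 1.30 (SE 0.11 each), and Ace by 0.59 and 0.95 (SE 0.11 each). The last 4 of these genes had an unadjusted interaction p under 0.05. No gene (0%) was called for the interaction of genotype and side in limma (lowest adjusted p = 0.665 over all genes, 480 genes or 2.41% at an unadjusted p under 0.05, 0 with a trended and robust variance).

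**Figure D3:**
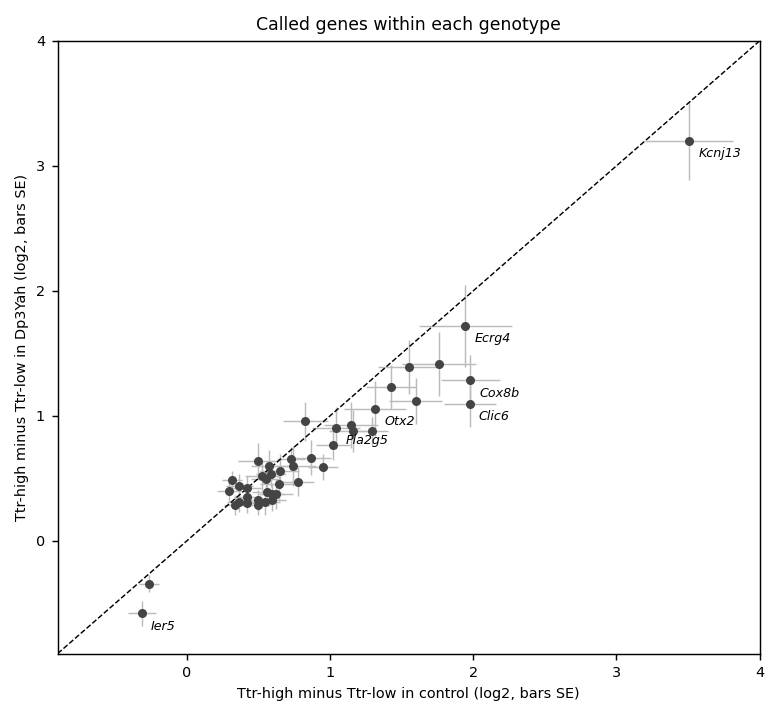
Difference between Ttr-high and Ttr-low arrays (log2, bars are SE) of the 44 called genes among control mice (horizontal axis) and among Dp3Yah mice (vertical axis); the dashed line marks equal differences. Of the 42 genes called higher 36 lie to the right of the line; their sign on both axes is fixed because the sides do not overlap in these genes.

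The comparison of Dp3Yah with control was then read with and without the side in the fit. For the 51 choroid genes the median of Dp3Yah minus control was 0.02 without the side and -0.07 with it. Without the side 36 of the 51 were above 0, against 9326 of all 19937 genes. The 51 genes vary together and the Ttr-high side held 3 Dp3Yah and 2 control mice, so this count does not measure a genotype difference. The median SE of the choroid genes fell from 0.15 to 0.09 once the side entered, while that of all genes was 0.054 and 0.055. Since 28 of the 51 were called for the side in these data, that fall follows from the calls and is a description only. No choroid gene was called for genotype in either fit (lowest limma adjusted p = 0.922 without the side and 0.939 with it). Over all genes 3 were called with the side (0.015%) and 3 without it (0.015%), all in the duplicated interval: Hspa13, an Hsp70-family gene, Mrpl39, a mitochondrial ribosomal gene, and Ncam2, a neural adhesion gene. With the side, these were 0.57, 0.48 and 0.60 higher in Dp3Yah, with limma adjusted p of 0.00502, 0.00502 and 0.0126, and without control replicate 5 none passed. Of the 17 measured genes of the interval none was called between the sides (median difference 0.02).

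Other tissues that border the hippocampus were measured beside the choroid plexus. The ependymal cells, whose motile cilia move the fluid, line the ventricle next to the plexus. Of 20 genes of ependymal cells and motile cilia 1 was called, 19 were above 0 and 10 had an unadjusted p under 0.05, all higher, against 4.16% of all genes (median difference 0.13, against -0.002 over all genes). The called gene was Rsph4a, a part of the ciliary radial spoke, at 6.24, 6.14, 5.90, 6.05 and 6.13 against 5.55, 5.57, 5.88, 5.78 and 5.29 (limma adjusted p = 0.0473). It was called in 1 of the 10 fits without 1 mouse. Cfap126, a cilium protein, was 0.41 higher (limma adjusted p = 0.355) and Rarres2, the chemerin precursor, 0.27 higher (limma adjusted p = 0.260). The mean deviation of the list was 0.02 to 0.22 in the Ttr-high arrays and -0.15 to -0.02 in the Ttr-low arrays, without overlap.

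Thalamus and habenula lie below the hippocampus. Of 14 genes of this region none was called, but 13 were above 0 and 8 had an unadjusted p under 0.05, all higher, against 4.16% of all genes (median difference 0.25). Prkcd, a protein kinase C abundant in thalamic relay neurons, was at 8.88, 9.20, 8.53, 8.68 and 8.54 in the Ttr-high arrays and at 8.65, 7.66, 7.24, 7.90 and 7.00 in the Ttr-low arrays. It was 1.11 higher (SE 0.26, limma adjusted p = 0.190). The transcription factor Tcf7l2 was 0.81 higher (SE 0.18, limma adjusted p = 0.174) and Plekhg1 0.56 higher (SE 0.11, limma adjusted p = 0.0719). Here the sides overlapped: control replicate 4, with low Ttr, had a list mean of 0.16, above that of 3 of the Ttr-high mice (-0.09, 0.05 and 0.11), while the other 4 Ttr-low mice lay between -0.34 and -0.23. With the mean of the 14 genes as a covariate, an alternative chosen after seeing the data, 7 genes were called between the sides, 4 of them choroid genes. These were Kcnj13 (3.21, limma adjusted p = 0.00568), Kl (1.38), Slc4a5 (1.02) and Igfbp2 (0.69), the last 3 at an adjusted p of 0.0438. The pyramidal cell gene Man1a was also called in that fit (0.58, limma adjusted p = 0.00568).

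The neocortex lies above the hippocampus. Of 13 neocortical genes none was called, 12 were below 0 and 5 had an unadjusted p under 0.05, all lower, against 3.55% of all genes (median difference -0.17). Tbr1, a transcription factor of deep-layer neurons, was at 8.98, 9.05, 8.95, 8.66 and 8.98 in the Ttr-high arrays and at 9.09, 9.11, 9.30, 9.56 and 9.53 in the Ttr-low arrays. The sides did not overlap, and the difference was -0.40 (SE 0.11, limma adjusted p = 0.293). The membrane protein gene Lamp5 differed by -0.57, the matricellular gene Ccn2 by -0.59 and the homeobox gene Cux2 by -0.42, each with an adjusted p above 0.05. The list mean overlapped between the sides, at -0.46 to 0.03 in the Ttr-high and -0.06 to 0.27 in the Ttr-low arrays, with Dp3Yah replicate 2 lowest.

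Immediate early genes, which neurons switch on within minutes of activity, were read as a further list. Of its 13 genes none was called, 11 were below 0 and 5 had an unadjusted p under 0.05, all lower, against 3.55% of all genes (median difference -0.43). Egr1 was at 9.10, 9.97, 10.15, 9.80 and 9.33 in the Ttr-high arrays and at 10.23, 10.25, 10.32, 10.50 and 10.23 in the Ttr-low arrays, a difference of -0.59 (SE 0.16, limma adjusted p = 0.314). Fosb differed by -0.60 and Per1 by -0.43. Most of this lay in Dp3Yah replicates 1 and 5, with list means of -0.64 and -0.55, while the other 3 Ttr-high mice were at 0.05 to 0.09, within the Ttr-low range of -0.15 to 0.53.

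**Figure D4:**
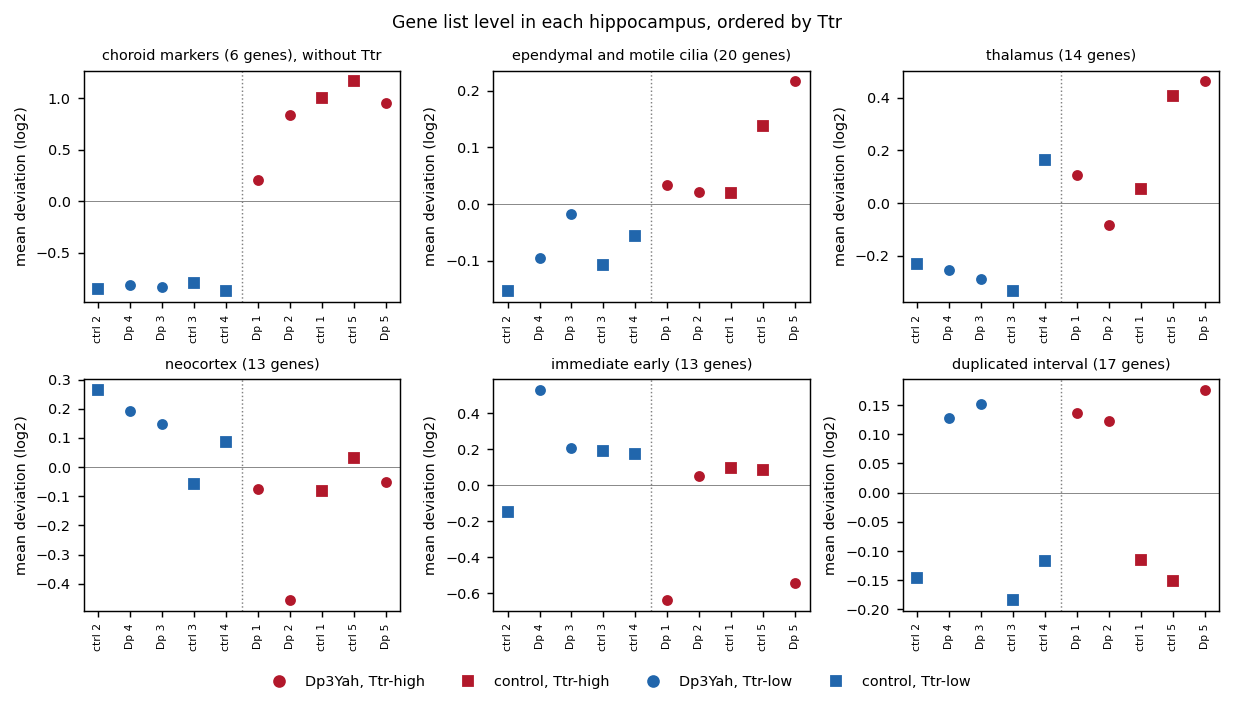
Mean deviation (vertical axis, log2, each gene taken relative to its mean over all arrays) of 6 gene lists in each hippocampus, ordered by Ttr from left to right; red marks Ttr-high and blue Ttr-low arrays, circles Dp3Yah and squares control mice. The 6 choroid markers and the 20 cilia genes do not overlap between the sides, control replicate 4 stands at 0.16 among the thalamic means, and the duplicated interval follows genotype.

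Vessels, macrophages and connective tissue were read from lists that are not particular to the plexus. Of 11 endothelial genes none was called and none had an unadjusted p under 0.05 (median difference -0.02), and the same held for 9 genes of border macrophages (median difference 0.03). The macrophage genes were dim, from Mrc1 (4.13 to 4.62 over the arrays) to Cd74 (5.24 to 5.74), beside array medians of 5.64 to 5.71. A difference at such levels may not be seen. Plvap, a gene of fenestrated endothelium, differed by -0.02 (95% interval -0.13 to 0.09). Of 10 mural genes 1 had an unadjusted p under 0.05 (median difference 0.01), the pericyte gene Rgs5 at 0.22. Of 16 genes of meninges and fibroblasts none was called and 6 were above 0 (median difference -0.07). At an unadjusted p under 0.05, 1 was higher and 4 were lower, against 4.16% and 3.55% of all genes. The proteoglycan Fmod differed by -0.58 (limma adjusted p = 0.530), the proteoglycan Lum by 0.17 and Ptgds, a prostaglandin synthase, by -0.26. Intervals of this width do not exclude small differences.

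Resident cells of the hippocampus were measured in the same fit. Of 12 dentate granule genes none was called (median difference 0.09), and Prox1, a defining factor of these cells, lay between 8.05 and 8.82 in all 10 arrays. Of 12 pyramidal genes none was called and 9 were above 0 (median difference 0.18). At an unadjusted p under 0.05, 3 were higher and 1 was lower, against 4.16% and 3.55% of all genes. Those higher were Cpne4 (0.22), Man1a (0.25) and Grik4 (0.25). Wfs1, a CA1 gene, differed by -0.46 (limma adjusted p = 0.158) and lay between 9.59 and 10.40 in all arrays. Markers of both hippocampal layers were thus present on each side. Of 10 interneuron genes none was called and 9 were below 0 (median difference -0.10), with the neuropeptide Vip at -0.35 (limma adjusted p = 0.279). Of 13 microglial genes none was called and 12 were above 0 (median difference 0.07). Of 11 oligodendrocyte genes none was called and 10 were above 0 (median difference 0.14), and of 10 astrocyte genes none was called (median difference 0.04), with the water channel Aqp4 at 0.27 (limma adjusted p = 0.379). Neither the 8 striatal (median difference 0.03) nor the 11 heat shock genes (median difference 0.07) held a called gene, and of the red blood cell list only Alas2 was measured (0.12).

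The genes that handle the ligands of transthyretin, thyroid hormone and retinol, were read as a list of their own. Of 14 genes none was called (median difference -0.04), and 5 had an unadjusted p under 0.05, against 7.71% of all genes. Of these 4 were higher and 1 was lower, against 4.16% and 3.55% of all genes. Slco1c1, a thyroxine transporter of brain vessels and choroid plexus, was 0.29 higher (95% interval 0.09 to 0.50, limma adjusted p = 0.431). The retinoid-binding gene Crabp1 was 0.22 higher, and Thrb, a thyroid hormone receptor, differed by -0.19 (limma adjusted p = 0.548). None of the 14 separated the sides without overlap.

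**Figure D5:**
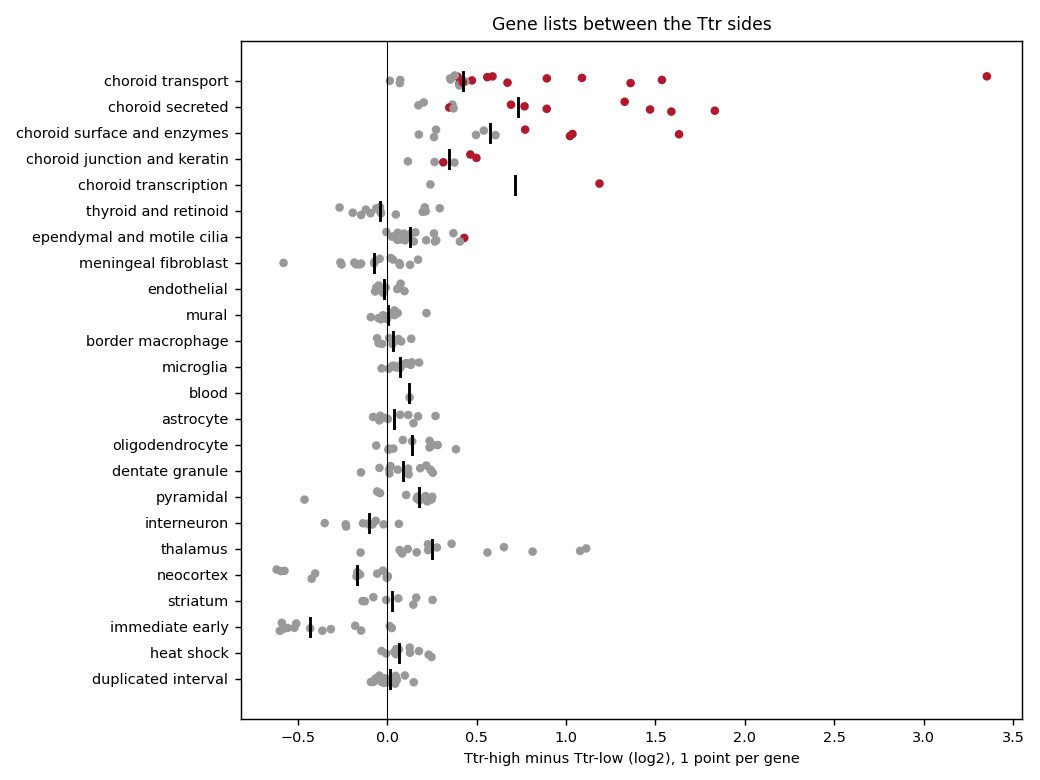
Difference between Ttr-high and Ttr-low arrays (horizontal axis, log2) of each measured gene in 24 lists (vertical axis), 1 point per gene; red points were called, grey points were not, and black bars are list medians. The 5 choroid lists hold 28 of the 29 red points, Rsph4a among the cilia genes is the other one, and the medians run from -0.43 for immediate early genes to 0.73 for secreted choroid proteins.

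Array medians ran from 5.64 to 5.71 on the log2 scale, and the SD of the difference between any 2 arrays over all genes ran from 0.115 to 0.208. The first principal component of all genes outside the choroid lists, with 25.1% of the variance, overlapped between the sides. It was at -18.11 to 3.99 in the Ttr-high and -0.75 to 8.63 in the Ttr-low arrays. The Ttr-high arrays thus lay mostly lower on it, with Dp3Yah replicate 2 farthest out. Labels give separate mice as replicates, and their number limits the precision of each difference.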

How the data were processed

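RNA of 10 hippocampi was measured on Affymetrix Mouse Gene ST arrays, 1 per mouse. The authors deposited log2 values for each probe set. The submitters' processing notes name RMA, limma and the mm10 build; their versions were not given in the sources used here. RMA brings arrays to a common distribution, so an array-wide shift cannot be seen. Of 35556 probe sets, 21789 had 1 gene, 1621 several and 12146 stayed unnamed here. Each of 19938 genes was represented by its one-gene probe set with the highest mean (999 had more than 1), and symbols and coordinates came from RefSeq GRCm38.p6 (19856 matched). Ttr was left out of all tests.

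Sides were compared by lmFit and eBayes of limma 3.58.1 under R 4.3.3 (two-sided, genotype as a covariate, Benjamini-Hochberg adjustment over all genes). Intervals are at the 95% level. The fits were checked on simulated data. The text names the markers, the choroid lists, the 10 largest other called rises and falls (filled up by smallest unadjusted p) and up to 4 genes of each other list by smallest p. The comparison, its members and the lists were chosen with earlier results of these data known. Alternatives were a replicate block, no genotype term, the Ttr value in place of the sides, other probe set summaries and a filter on dim genes. Further ones were other scalings and variance models, leaving out mice, and 2 covariates chosen after seeing the data. Sides set by the 6 other markers were also used. They are the same sides, so that fit differs from the main one only in leaving these markers untested.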

Additional observations from a re-analysis of the deposited data

Results flagged for a closer look

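Ttr and the called genes were read in groups of 5 arrays, which were the 2 sides and the Dp3Yah and control mice. In each group the highest or lowest array was set against the others by its gap to the nearest value, divided by the range of the group. In 8 of 180 groups this ratio passed Dixon's 95% critical value of 0.71, and chance gives about 1 in 20 (5 in 100). All 8 were found on a side. The genotype groups hold arrays of both sides, between which these genes do not overlap. The share over all 180 groups therefore cannot be weighed against chance. On the Ttr-high side Dp3Yah replicate 1, the mouse with the least Ttr there, stood below the others in Sostdc1 (ratio 0.838, 6.87 against 7.89 for the next), Steap2 (0.84), Lbp (0.798), Aqp1 (0.741) and Igfbp2 (0.72). On the Ttr-low side control replicate 4 stood above the others in Aqp1 (0.781, 6.16 against 5.87), and control replicate 2 stood below the others in Calml4 (0.787) and Stoml3 (0.736).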

How the results depend on the processing

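Of the 40 called genes named by rule, 930 values under alternatives held 0 changes of direction and 208 losses of the call. The sides do not overlap in the called genes. This fixed their direction in the fits that left out mice or the genotype term, so the absence of changes there is a description only. Among the other named genes 71 of 2426 values passed in the same direction and 0 passed in the opposite one. Changes of direction among their values that did not pass were not counted. The 44 genes called between the sides became 73 with the Ttr value in place of the sides, 26 with all probe sets tested, 20 among genes above the median level and 7 with the thalamus mean as a covariate, and leaving out 1 mouse gave 21 (without control replicate 5) to 54 (without Dp3Yah replicate 1). The 28 choroid genes became 18 with all probe sets, 12 above the median level, where dimmer choroid genes were left out, and 4 with the thalamus mean, and leaving out 1 mouse gave 18 to 30. Dp3Yah against control gave 0 (without control replicate 5) to 3 genes when 1 mouse was left out. Deviations of same-numbered mice correlated at -0.358 to 0.303 over 5 pairs, which does not settle whether the replicate numbers pair the mice. With the replicate number as a block, 544 genes were called between the sides, 129 higher and 415 lower, 26 of them among the 44, and 6 between Dp3Yah and control; only number 2 holds both sides, so the blocked difference between the sides rests on 2 arrays. Where no cause is given, the cause was not tested. Each side holds 5 arrays, whose number limits the precision, and signal over background was not analysed here.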
